A study of Mus musculus with 23 samples.

Results

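The genes described here encode 9 proteins of monocyte and macrophage recruitment: the CC chemokines Ccl2, Ccl7, Ccl12, Ccl8, Ccl3, Ccl4 and Ccl5, and the receptors Ccr1 and Ccr2. They were taken by name, with earlier results of these data known, and each stood for 1 row among the 47643 genes of the expression table. Expression was given as TPM (a relative transcript abundance, scaled for gene length and library total) in 23 RNA-seq libraries. In 18 of these libraries, all of B16F10, a mouse melanoma cell line, 3 sample types (whole or bulk tumors, tumor cells enriched from them by magnetic sorting, and cultured cells) were each profiled in 3 groups of 2 libraries: control cells of WT genotype, and cells labeled NR2F6 KO that had received the guide RNA sg492 or sg495 against the nuclear receptor gene Nr2f6. The KO cells had been transfected with Cas9 protein and a Cy3-labeled guide and sorted for Cy3, and tumors were grown under the skin of male C57BL/6 mice aged 6 to 8 weeks. Sorted tumor cells came from tumors digested with collagenase and depleted of stromal cells. A further 5 libraries of WT genotype carried the group names IgG_Control (2 libraries) and anti-PD1 (3 libraries), and their labels gave no cell type. Whether same-numbered libraries shared an animal or culture was not stated, so p-values measure the spread between these libraries only.

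CC chemokines are small secreted proteins that guide leukocytes along a gradient through G protein-coupled receptors. Ccl2, Ccl7 and Ccl12 are ligands of Ccr2, the receptor that classical monocytes use to leave the bone marrow and enter inflamed tissue and tumors. Ccl8 is grouped with them by sequence and position, although the mouse protein is also known as a ligand of Ccr8. Ccl3, Ccl4 and Ccl5 form another group of related ligands, and Ccl3 and Ccl5 bind Ccr1, a receptor of monocytes, macrophages and neutrophils. Macrophages are a main source of most of these ligands in tumors, while Ccl5 is also made by T cells, NK cells and many other cell types.

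On GRCm38 (mm10), the 7 ligand genes lay on chromosome 11 and the receptor genes on chromosome 9, all protein coding in GENCODE M21. Ccl2 (82035571 to 82037453), Ccl7 (82045712 to 82047525), Ccl12 (82101845 to 82103400) and Ccl8 (82115185 to 82116799) stood within 81.2 kb, all on the plus strand. Ccl5 (83525778 to 83530518, minus strand), Ccl3 (83647844 to 83649355, minus strand) and Ccl4 (83662584 to 83664683, plus strand) stood within 139 kb. Ccr1 (chromosome 9, 123962124 to 123968692, minus strand) and Ccr2 (124101950 to 124113557, plus strand) were neighbors within 151 kb. Since these families are related in sequence, each 75-base stretch of a member's transcripts, the length of a read, was searched for in the transcripts of all other genes. For 8 of the 9 genes none was shared, and for Ccr2 the share was 1.16%.

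The promoters of Ccl12 and Ccl8 are shown because these neighboring genes are described in most detail: Ccl8 in bulk tumors with sg495, and Ccl12 with anti-PD1, although neither was called there. The RefSeq table of GRCm38.p6 held 5 of the 9 promoters (Ccl12, Ccl8, Ccl3, Ccr1 and Ccr2). The 250 bases before each start are given 5′ to 3′ on the plus strand of chromosome 11, chr11:82101595-82101844 for Ccl12 and chr11:82114935-82115184 for Ccl8, and capitals mark the TATAAA motif.
Ccl12: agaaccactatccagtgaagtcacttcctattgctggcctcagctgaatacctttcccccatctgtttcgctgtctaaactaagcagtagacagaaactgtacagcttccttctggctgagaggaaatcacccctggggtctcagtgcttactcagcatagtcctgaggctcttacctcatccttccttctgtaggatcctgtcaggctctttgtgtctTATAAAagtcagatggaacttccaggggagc
Ccl8: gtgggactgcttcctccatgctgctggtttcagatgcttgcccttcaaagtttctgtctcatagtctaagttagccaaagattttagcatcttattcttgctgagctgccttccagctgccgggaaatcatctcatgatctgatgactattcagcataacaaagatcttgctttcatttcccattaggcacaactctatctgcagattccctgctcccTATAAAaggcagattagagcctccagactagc
The motif began 31 bases before the start of Ccl12 and 32 bases before that of Ccl8, and it was in 12.4% of the 32851 promoter windows of the table. Windows of the same length were searched on both strands for 5 other motifs: an NF-kB site (in 0.356% of all windows), a STAT site (TTCNNNGAA, 7.02%), an interferon response element (2.98%), an AP-1 site (TGANTCA, 6.75%) and a PU.1 core (GAGGAAGT, 2.44%). None of these 5 patterns was in the windows of the 5 members.

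All libraries of the 3 sample types had between 11925 and 13899 genes at 1 TPM or more. The labels put the depth at 23 to 31 M reads a library, and TPM do not show it library by library. In bulk tumors the TPM of Nr2f6 were 17.22 and 15.76 with sg495, 22.31 and 23.31 with sg492, and 25.83 and 25.24 in the controls. In the sorted libraries labeled sg492 it was not lower than in control (19.84 and 25.7 against 20.32 and 17.73 TPM), so those libraries are named by their label. In sorted and cultured cells, the 6 melanocyte genes summed to between 14595 and 17580 TPM. The 6 leukocyte markers differed there: Ptprc, which encodes CD45, was at 0.15 TPM or less, and Cd53 and Cd52 at 0.38 TPM or less. Laptm5 reached 1.01 TPM and Coro1a 3.29 TPM. Ptpn6 had 15.66 to 25.11 TPM in sorted and 8.53 to 14.03 TPM in cultured cells. The neutrophil marker Ly6g was listed at 0 in every library.

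**Figure D1:**
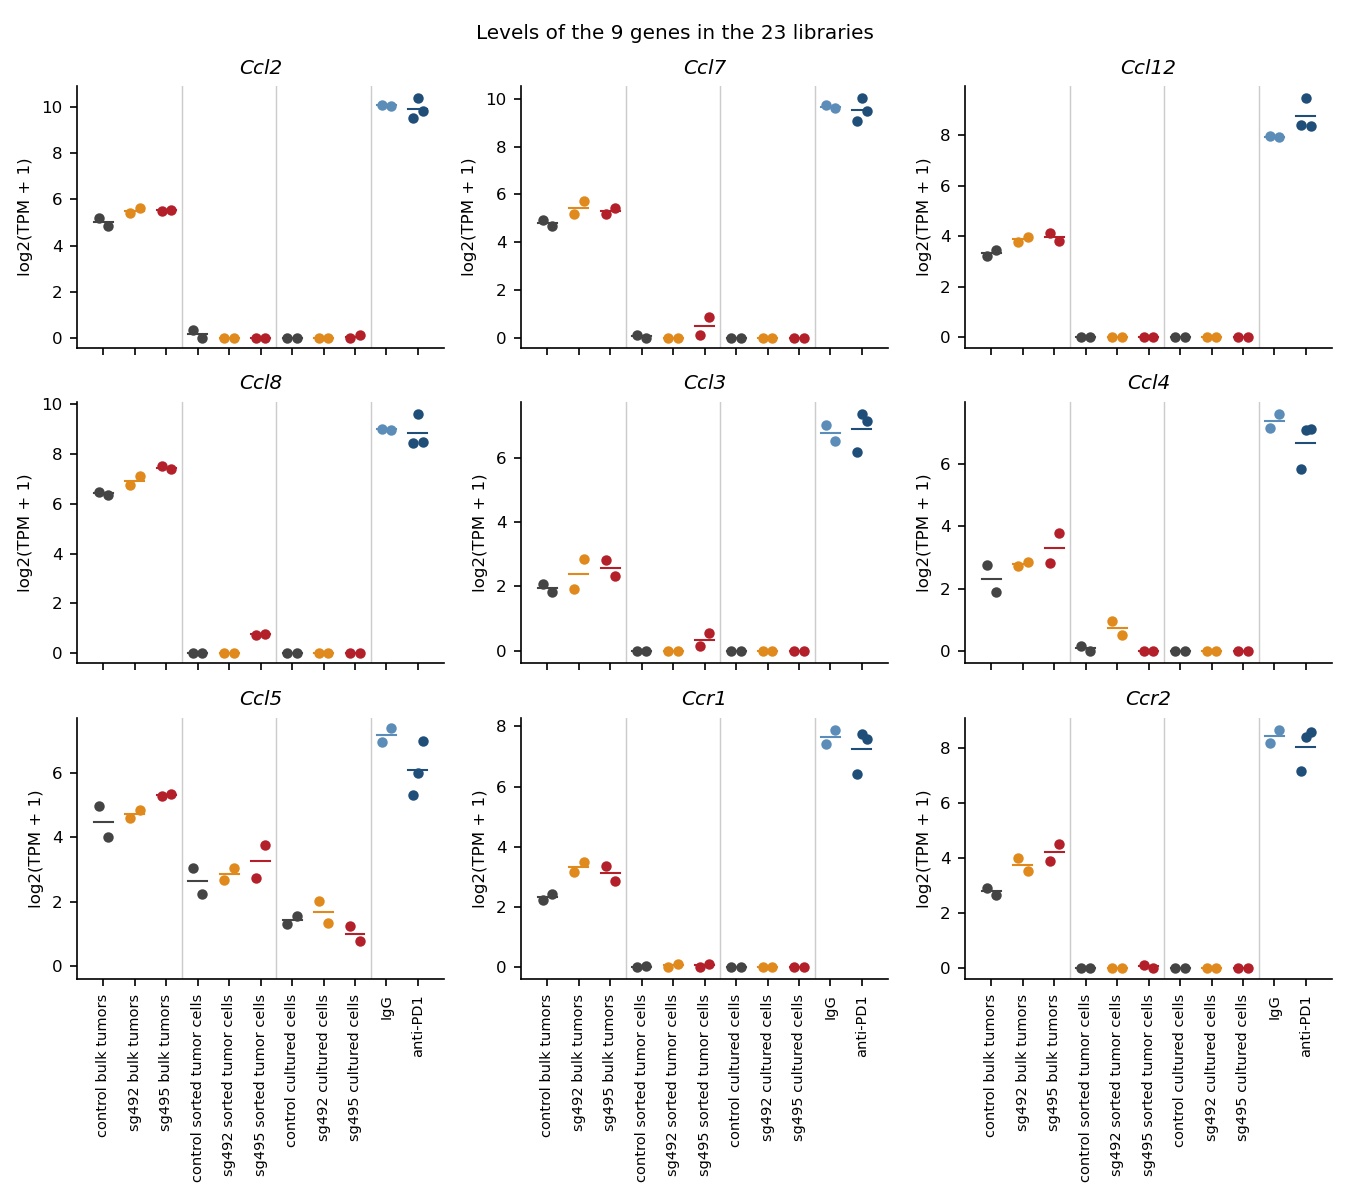
Levels of the 9 genes in each of the 23 libraries. Each panel is 1 gene, the vertical axis is log2(TPM + 1), the horizontal axis gives the 11 groups, points are libraries and short lines are group means. In sorted and cultured cells only Ccl5 stood above 1 TPM, and the IgG and anti-PD1 libraries were the highest for every gene except that 1 anti-PD1 library had 38.92 TPM of Ccl5, within the range of sg495 bulk tumors.

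How the 9 genes were distributed over the sample types was read first from the control libraries. Control bulk tumors had 88.17 and 79.58 TPM of Ccl8, the highest of the 9. Next came Ccl2 (35.66 and 27.98 TPM), Ccl7 (29.23 and 24.42 TPM) and Ccl5 (30.49 and 15.02 TPM), neighbors in the order whose ranges overlapped. Ccl12 followed with 8.23 and 10.03 TPM, and its range overlapped neither Ccl5 nor Ccr2. The receptors Ccr2 (6.6 and 5.34 TPM) and Ccr1 (3.75 and 4.41 TPM) could not be separated from Ccl4 (5.74 and 2.68 TPM), and Ccl3 was lowest with 3.21 and 2.57 TPM.

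Sorted tumor cells held little of this RNA except that of Ccl5. In sorted cells of the control, Ccl12, Ccl8, Ccl3 and Ccr2 were listed at 0 in both libraries, so that no fold is given for them. Ccl2, Ccl7, Ccl4 and Ccr1 each had at most 0.28 TPM there, and the mean of sorted cells was between 0.186% and 1.43% of the mean of bulk tumors. For Ccl5 that share was 24.1%, with 7.29 and 3.69 TPM in the control sorted cells. The other 8 genes reached the mean of 1 TPM needed for a test through the bulk tumors alone, so that their difference from sorted cells is given by these levels, without a test. For Ccl5, a limma model of all 18 libraries called control bulk tumors higher than control sorted cells, beside 12.7% of the 13152 genes called in either direction. A call stands throughout for a Benjamini-Hochberg adjusted p below 0.05 over all genes tested and a change of 1.5 times or more. For Ccl5 the log2 fold change, on the log2(TPM + 1) scale used throughout, was 1.85 (SE 0.390, limma adjusted p = 0.00374). Without the first control bulk tumor, Ccl5 was not called, with an adjusted p of 0.0506.

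Cultured melanoma cells carried 1 of the 9 transcripts throughout. The Ccl5 values in TPM were 1.5 and 1.97 (control), 3.04 and 1.56 (sg492), and 1.4 and 0.71 (sg495). The only other value above 0 was 0.09 TPM of Ccl2 in 1 sg495 library. Between control sorted tumor cells and control cultured cells, Ccl5 was the 1 member called, with a log2 fold change of 1.19 (SE 0.390, limma adjusted p = 0.0260), beside 20.2% of all genes called in either direction. That call was lost without the expression filter (adjusted p = 0.0707), without either control culture (0.122 and 0.0628) and without the first control library of sorted cells, where the log2 fold change was 0.78 (adjusted p = 0.212). T and NK cells also make Ccl5. Of their 8 markers, Cd3e, Nkg7, Ncr1 and Klrb1c were listed at 0 in all sorted and cultured libraries. Cd3g, Cd8a, Cd4 and Trac were above 0 in some, at most at 0.69 TPM (Cd3g in the first sg495 library of sorted cells). The 8 markers summed to at most 0.9 TPM in any of these libraries, and the part of such cells in the Ccl5 values was not tested.

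Whether editing of Nr2f6 in the tumor cells went with other levels of these transcripts in the whole tumor was addressed in bulk tumors. In bulk RNA, more cells of a type and more RNA per cell cannot be told apart. Every one of the 9 genes was higher in both sg495 tumors than in both controls, by between 0.50 and 1.41 on the log2 scale, but none of them passed the adjusted threshold. Complete separation of this kind was seen for 31.6% of all 13639 genes. At an unadjusted p below 0.05, 8 of the 9 were higher, against 11.1% of all genes. The median log2 fold change of the 9 was 0.78, beside 0.06 over all genes tested, while 0 of the 9 and 0.0293% of all genes (4 genes) were called.

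Among the ligands of the Ccl2 cluster, Ccl8 had 180.3 and 164.16 TPM with sg495 and 88.17 and 79.58 TPM in control. The sg495 pair was about as far above the sg492 pair (105.77 and 136.47 TPM) as that was above control, and no groups overlapped. Its log2 fold change against control was 1.03 with sg495 (SE 0.130, limma adjusted p = 0.0865) and 0.52 with sg492 (SE 0.130, adjusted p = 0.497). Ccl2 had 44.26 and 45.95 TPM with sg495 and 41.49 and 48.41 TPM with sg492, nearly the same level, and both pairs were above the controls. The log2 fold change of Ccl2 was 0.50 with sg495 (SE 0.134, adjusted p = 0.152) and 0.49 with sg492 (adjusted p = 0.497). Ccl7, the gene next to it, had 35.18 and 42.71 TPM with sg495 and 35.22 and 51.64 TPM with sg492. These values too lay above both controls and did not separate the guides. Ccl12 had 16.41 and 13.02 TPM with sg495 and 12.87 and 14.87 TPM with sg492, again above both controls, with log2 fold changes of 0.63 (adjusted p = 0.139) and 0.56 (adjusted p = 0.497).

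The ligands Ccl3, Ccl4 and Ccl5 varied more between replicates. Ccl5 had 37.82 and 39.99 TPM with sg495, above both controls, while its sg492 values of 23.35 and 27.67 TPM lay between the controls of 30.49 and 15.02 TPM. Its log2 fold change was 0.83 with sg495 (SE 0.295, limma adjusted p = 0.255) and 0.23 with sg492 (adjusted p = 0.837). Without the first control tumor, Ccl5 with sg495 was called, at 1.32 (adjusted p = 0.0262), in a fit that called 1.39% of all genes. Ccl3 had 6.04 and 4.02 TPM with sg495 and 2.8 and 6.22 TPM with sg492. Its sg492 replicates lay far apart and overlapped both other groups, and without the second one its log2 fold change with sg492 was −0.03 in place of 0.43. Ccl4 had 6.07 and 12.66 TPM with sg495, and 1 of these values was close to the higher control of 5.74 TPM. With sg492, Ccl4 had 5.63 and 6.19 TPM and overlapped the controls.

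The receptors had the largest differences with sg492, and Ccr2 also with sg495. Ccr2 had 13.98 and 21.73 TPM with sg495, 14.91 and 10.55 TPM with sg492, and 6.6 and 5.34 TPM in control. Both guides lay above control without overlap, by 1.41 (SE 0.249, limma adjusted p = 0.0994) and 0.97 (SE 0.249, adjusted p = 0.497) on the log2 scale, and they overlapped each other. Ccr1 had 9.35 and 6.29 TPM with sg495, 7.9 and 10.36 TPM with sg492, and 3.75 and 4.41 TPM in control. Its log2 fold changes of 0.78 (SE 0.219, adjusted p = 0.164) and 0.99 (SE 0.219, adjusted p = 0.481) stood in the other order, with no test separating the guides.

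With sg492, all 9 genes were again higher on average, 6 of them without overlap (beside 31.1% of all genes) and 6 at an unadjusted p below 0.05 (beside 6.67%). The 6 were Ccl2, Ccl7, Ccl12, Ccl8, Ccr1 and Ccr2 in both counts. The median over the 9 was 0.52 beside 0.06 over all genes, and 0 of the 9 and 0% of all genes were called. Both guides were compared with the same 2 control tumors, so their directions are not independent of each other. Between sg495 and sg492, 0 of the 9 and 0% of all genes were called. Ccl8 (log2 difference 0.51, SE 0.130, unadjusted p = 0.00709, limma adjusted p = 0.281) was the 1 member with an unadjusted p below 0.05, and Ccl8 and Ccl5 (0.59, adjusted p = 0.572) were the 2 whose sg495 pair lay wholly above the sg492 pair, as did 21.1% of all genes.

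With 2 libraries a group, an exact permutation test cannot give a 2-sided p below 0.333, and the calls rest on the spread that the model shares across genes. When the bulk comparison was taken from the model of all 18 libraries, 4 of the 9 were called higher with sg495, beside 3% of all genes called in either direction: Ccl8 (limma adjusted p = 0.00181), Ccr2 (0.00472), Ccr1 (0.0404) and Ccl12 (0.0413). In that model the spread of a gene is also estimated from sorted and cultured libraries, where these 4 were at or near 0.

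**Figure D2:**
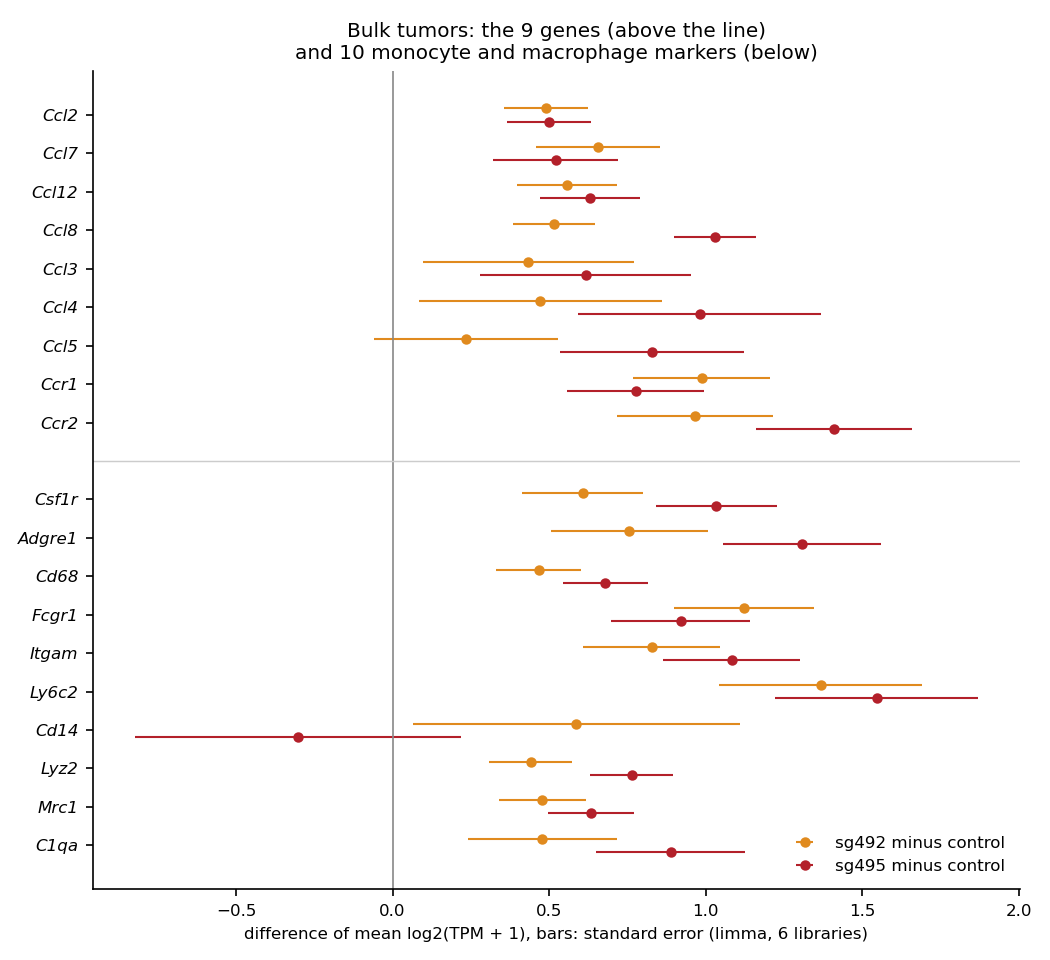
Differences between guide and control in bulk tumors for the 9 genes and for 10 of the 12 markers of monocytes and macrophages. The horizontal axis is the difference of mean log2(TPM + 1), points are sg492 (orange) or sg495 (red) minus control, and bars are the standard error from limma. With sg495 all 9 genes, with a median of 0.78, and all markers plotted except Cd14 stood right of 0.

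Transcripts of monocytes and macrophages were also higher on average in the edited tumors. The summed TPM of 12 markers, among them Csf1r, Adgre1, Cd68, Fcgr1, Ly6c2, Cd14, Lyz2 and C1qa, was 539.88 and 392.64 in the control tumors, 603.82 and 744.4 with sg492, and 791.49 and 846.47 with sg495. With sg495, 11 of the 12 were higher on average, beside 63.1% of all genes. Of them, 9 were so at an unadjusted p below 0.05 (11.1% of all genes), and 0 were called (0.0293%). Their median log2 fold change was 0.87. With sg492 the median of the 12 was 0.60, and 0 were called, as were 0% of all genes. Ly6c2, a marker of the inflammatory monocytes that express Ccr2, had log2 fold changes of 1.55 with sg495 (SE 0.323, limma adjusted p = 0.107) and 1.37 with sg492 (adjusted p = 0.483). The 6 general leukocyte markers had medians of 1.06 and 0.63, and the 6 tested markers of T and NK cells had medians of 0.79 and 0.32. Fibroblast markers (5 of 5 higher with sg495, median 0.89) were also higher on average, whereas endothelial markers had a median of 0.22, the 4 tested neutrophil markers 0.09 and melanocyte markers 0.01. The part of these cell types in the levels of the 9 genes was not tested.

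Set against the summed macrophage markers of the same tumor, fewer of the 9 genes separated the groups. With sg495, 6 of the 9 overlapped the controls, where none had in TPM. With sg492, 7 overlapped, of which Ccl3, Ccl4 and Ccl5 had done so in TPM. Ccl8 was equal to 16.3% and 20.3% of the marker sum in control and to 22.8% and 19.4% with sg495. Ccr2 stayed above both controls with both guides, at 1.22% and 1.36% in control, 2.47% and 1.42% with sg492, and 1.77% and 2.57% with sg495. Ccr1 did so with sg492 alone (1.31% and 1.39%, against 0.695% and 1.12%). Ccl2 and Ccl7 were below both controls with sg495, at 5.59% and 5.43% for Ccl2 (control 6.61% and 7.13%) and at 4.45% and 5.05% for Ccl7 (control 5.41% and 6.22%). Without Lyz2, which makes up the largest part of the sum, Ccr2 overlapped the controls and Ccl5 lay below them with sg492, and the 3 placements with sg495 were the same. These shares were taken after the marker values were known and carry no test. How many of all genes overlap the controls on this scale was not determined. The marker sums of the 2 controls differed (539.88 and 392.64 TPM), which alters the control range of any gene. The counts therefore describe these libraries and are not a result about the 9 genes.

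**Figure D3:**
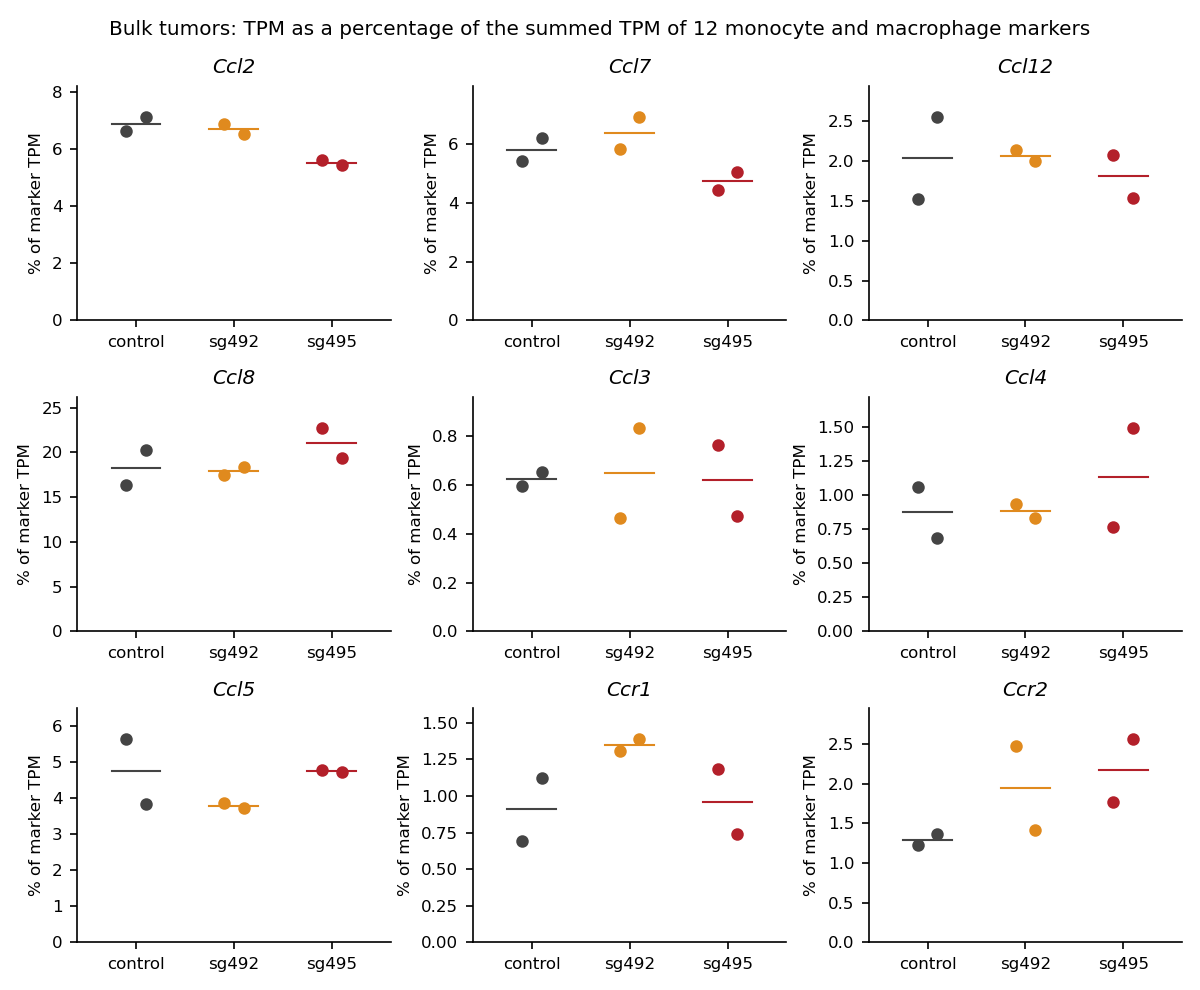
The 9 genes in bulk tumors as a percentage of the summed TPM of 12 monocyte and macrophage markers in the same library. The vertical axes start at 0, points are libraries and lines are means of 2. With sg495, Ccr2 lay above both controls and Ccl2 and Ccl7 below both, and the other 6 genes overlapped control.

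Other genes of the same pathways in bulk tumors were taken from lists chosen by function. Of 13 further CC ligands, 9 passed the expression filter, 7 of those were higher on average with sg495, as were 63.1% of all genes tested, and 0 were called. Ccl6 and Ccl9, chemokines that act on Ccr1, had 139.91 and 132.34 TPM and 44.58 and 44.4 TPM with sg495, and 101.43 and 105.83 TPM and 36.85 and 30.18 TPM in control. Both lay above control without overlap, by 0.39 (limma adjusted p = 0.112) and 0.41 (adjusted p = 0.280) on the log2 scale. Ccl6 was therefore at a higher level than Ccl8 in control tumors, and its difference was the smaller. Of 13 further receptors of CC chemokines, classical or atypical, 5 were tested and all 5 were higher on average. Among 12 other genes of myeloid recruitment, 7 were tested and 5 were higher on average with sg495, a share near that of all genes. The neutrophil chemokines Cxcl1 and Cxcl2 were the 2 that were not, with limma log2 fold changes of −0.21 (adjusted p = 0.900) and −0.64 (adjusted p = 0.597). Cxcl5, also a neutrophil chemokine, was among the 5. It had 2.41 and 3.17 TPM with sg495 and 3.34 and 1.86 TPM in control, with overlap. Csf1, the growth factor of macrophages, had 13.35 and 14.54 TPM with sg495 and 10.09 and 8.27 TPM in control bulk tumors. Csf1 was also present in all cultured libraries, at 6.03 to 7.55 TPM. In sorted tumor cells it had 8.62 and 7.52 TPM with sg495 against 3.87 and 2.89 TPM in control, a log2 fold change of 1.06 (SE 0.305, adjusted p = 0.196).

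Within sorted tumor cells, Ccl5 was the 1 member that passed the expression filter. Its TPM were 5.73 and 12.49 with sg495, 5.39 and 7.28 under the label sg492, and 7.29 and 3.69 in control, so that all groups overlapped. Its log2 fold change was 0.61 with sg495 (SE 0.407, limma adjusted p = 0.521) and 0.22 with the label sg492 (adjusted p = 0.933). No member was called in the comparisons of sg495 with control, sg492 with control and sg495 with sg492, beside 0.899%, 0.0388% and 0.589% of all genes. Of the members below the filter, Ccl8 was detected in both sg495 libraries, at 0.69 and 0.72 TPM, and listed at 0 in the other 4. It entered the model of all 18 libraries through bulk tumors. There it was called higher with sg495 than in control (3.03% of all genes called) and than under the label sg492 (2.68%). Both calls set 0.69 and 0.72 TPM against values of 0, which have no spread. They are therefore no test of an effect in sorted cells. Ccl3 had 0.11 and 0.45 TPM with sg495 and was also listed at 0 elsewhere. Ccl7 had 0.1 and 0.86 TPM with sg495 and 0.1 and 0 TPM in control, and was listed at 0 under the label sg492. Ccl4 reached 0.93 and 0.43 TPM under the label sg492 and was listed at 0 with sg495. The 12 markers of monocytes and macrophages summed to 7.82 and 13.37 TPM in the sg495 sorted libraries and to 5.8 and 4.2 TPM in control. Most of each sum was Cd68 (6.76 and 12.09 against 5.06 and 3.62 TPM), which the cultured cells also expressed, at 1.11 to 3.05 TPM. Other markers of the list were near 0 and went both ways. Csf1r had 0 and 0.02 TPM with sg495 and 0.09 and 0.06 TPM in control, and Mrc1 0.04 and 0 against 0.1 and 0.08 TPM. In contrast, C1qa had 0.16 and 0.08 TPM with sg495 and 0 in both controls, and Lyz2 0.82 and 0.59 against 0.35 and 0.44 TPM. The part of such cells in these values was not tested.

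For cultured cells, both sg495 libraries had less Ccl5 (1.4 and 0.71 TPM) than both controls (1.5 and 1.97 TPM), with a log2 fold change of −0.43 (SE 0.289, limma adjusted p = 0.390). The nearest values of the groups were 1.4 and 1.5 TPM, and 28.9% of all genes lay wholly below control in the same way. No member was called for sg495 against control, sg492 against control or sg495 against sg492, where 2.77%, 0.05% and 2.61% of all genes were.

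Whether the effect of sg495 depended on the sample type was tested as an interaction in the model of 18 libraries. The effect in bulk tumors was called larger than that in cultured cells for 2 members, Ccr2 (difference 1.41, SE 0.300, limma adjusted p = 0.0357) and Ccl8 (1.03, SE 0.180, adjusted p = 0.0168), beside 1.76% of all genes called in either direction. As both were listed at 0 in all cultured libraries, these differences are equal to the effects in bulk tumors, through which alone both genes passed the expression filter. Within the 6 bulk libraries, the same effects of Ccr2 and Ccl8 were not called (limma adjusted p = 0.0994 and 0.0865). The model of 18 libraries also estimates the spread from cultures where both genes were at 0. The 2 calls therefore do not test whether the effect on either gene depended on the sample type. Neither was called with a pseudocount of 0.1, nor when the second control tumor or any 1 control or sg495 culture was left out. For Ccl5, detected in both sample types and with opposite signs, the difference was 1.26 (SE 0.551, adjusted p = 0.299). Between sorted and cultured cells, Ccl8 alone was called (2.51% of all genes), a call that rests on the 0.69 and 0.72 TPM given above. Ccl8 did not pass the filter within sorted or cultured cells and entered this model through its level in bulk tumors. Between bulk tumors and sorted cells, 0 members were called (0.122% of all genes), and Ccr2 came closest with a difference of 1.34 (SE 0.300, adjusted p = 0.0992).

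The IgG and anti-PD1 libraries held far more of these transcripts than the bulk tumors. Ccl2 had 1081.7 and 1040.14 TPM in the IgG libraries and ranked first, ahead of Ccl7 with 842.53 and 790.22 TPM and Ccl8 with 505.38 and 495.22 TPM. The mean of the IgG libraries was 57.9 times that of control bulk tumors for Ccr2, 49.6 times for Ccr1, and between 27 and 39.5 times for Ccl2, Ccl7, Ccl12, Ccl3 and Ccl4. Ccl8 (5.96 times) and Ccl5 (6.31 times) were the least different, so that the order of Ccl8 and Ccl2 was opposite in the 2 kinds of sample. Leukocyte and macrophage markers had ratios of similar size (Ptprc 28.9 times, Csf1r 27.6 times, Lyz2 19.9 times), while Col1a1 of fibroblasts was at 0.125 times and the pigment gene Pmel at 0.203 times the bulk level. Since all 5 libraries differ from bulk tumors in treatment and possibly in preparation, these ratios describe the libraries and were not tested.

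**Figure D4:**
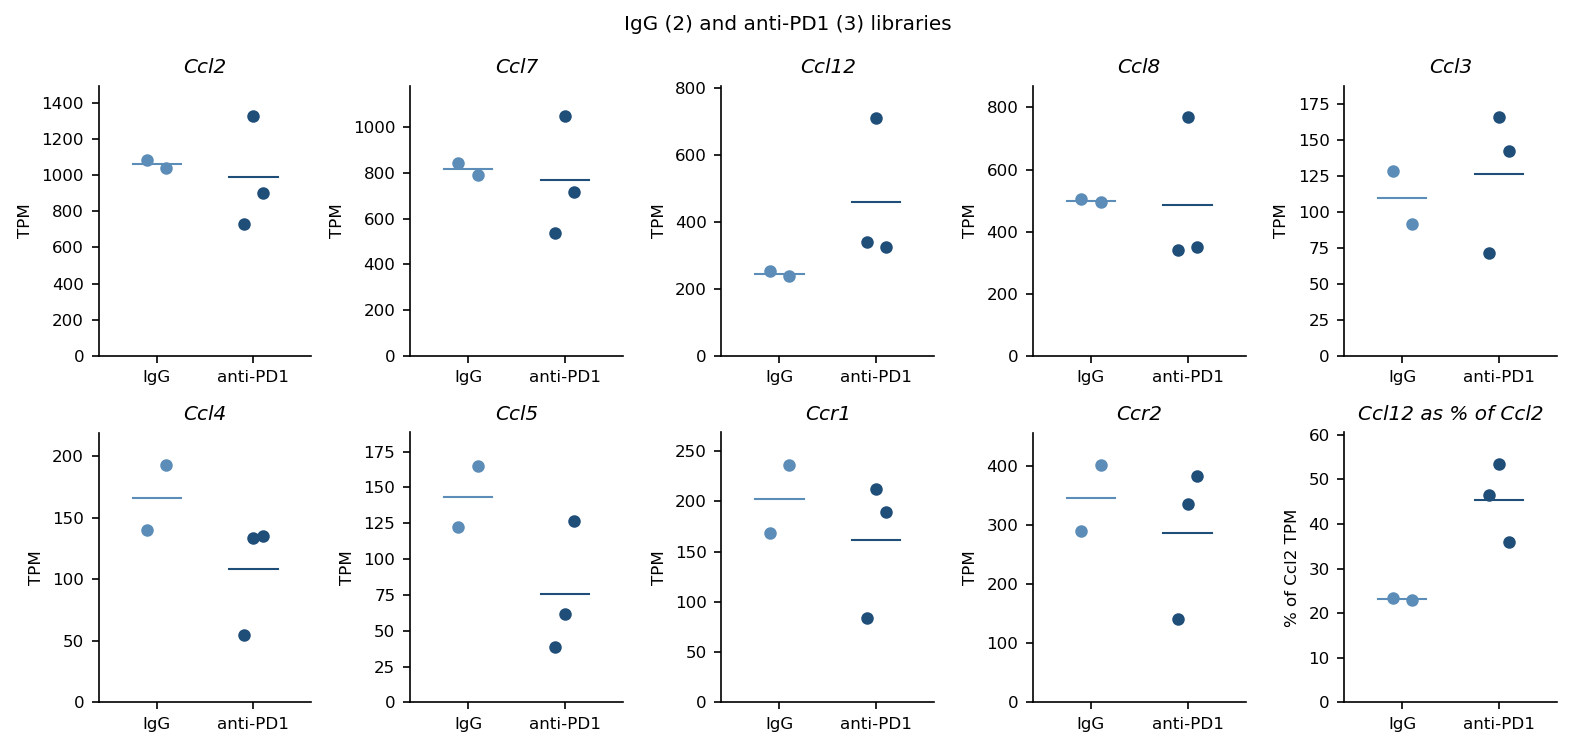
The 9 genes in 2 IgG and 3 anti-PD1 libraries in TPM, and Ccl12 as a percentage of Ccl2 in the same library. Vertical axes start at 0, points are libraries and lines are group means. All 3 anti-PD1 libraries were above both IgG libraries for Ccl12, and below both for Ccl4.

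How anti-PD1, an antibody that blocks the T cell checkpoint receptor PD-1, differed from IgG was asked within these 5 libraries. Ccl12 had 340.69, 709.42 and 325.47 TPM with anti-PD1 and 252.58 and 239.73 TPM with IgG, the 1 member with every anti-PD1 library above every IgG library, as 9.57% of all genes were. Its log2 fold change was 0.80 (SE 0.352, limma adjusted p = 0.608). Ccl4 lay below IgG in all 3 anti-PD1 libraries (55.19, 133.95 and 135.69 against 139.99 and 192.66 TPM), as did 15.8% of all genes, and its log2 fold change was −0.71 (adjusted p = 0.608). Ccl5 had 38.92, 62 and 126.25 TPM with anti-PD1 and 122.31 and 164.85 TPM with IgG, a log2 fold change of −1.06 (SE 0.461, adjusted p = 0.608) with 1 overlapping library. Of the other 6 members all overlapped, with log2 fold changes between −0.41 and 0.13. None of the 9 was called, nor was any other gene (0%), and 0 of the 9 had an unadjusted p below 0.05. An exact 2-sided permutation test cannot go below 0.2 here.

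The ratio of Ccl12 to Ccl2 separated the anti-PD1 from the IgG libraries, a description with no test. Ccl12 alone already did so, and how many other pairs of genes would was not determined. Ccl12 was equal to 23.4% and 23.1% of Ccl2 in the IgG libraries and to 46.6%, 53.5% and 36.1% with anti-PD1. In bulk tumors this share ran from 23.1% to 37.1% over the 6 libraries, with every group overlapping the others. The 3 anti-PD1 libraries differed widely among themselves, and the second had the highest values for Ccl2, Ccl7, Ccl12, Ccl8, Ccl3 and Ccr1. Leaving out the first anti-PD1 library turned the log2 fold changes of Ccl2, Ccl7, Ccl8, Ccr1 and Ccr2 from below 0 to between 0.00 and 0.09. The 12 macrophage markers summed to 9424.9 and 8708 TPM with IgG and to 6268.6, 8753.8 and 8403 TPM with anti-PD1 (median log2 fold change −0.50). The 8 markers of T and NK cells, which also make Ccl5, summed to 159.54 and 201 TPM with IgG. With anti-PD1 they summed to 20.66, 55.46 and 344.55 TPM, in the same order of these 3 libraries as Ccl5. With the IgG libraries included, the order was not the same. The third anti-PD1 library had the highest marker sum, but its 126.25 TPM of Ccl5 lay below the 164.85 TPM of the second IgG library. The melanocyte markers had a median of 0.83, all 6 higher on average, and the part of this mixture in the chemokine values was not tested.

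Over all 23 libraries, the genes with the most similar profile were found from the mean absolute difference of centered log2(TPM + 1). This is a description, since the 23 points share sample types and cell mixture. Of all 13595 genes considered, Ccl7 was nearest to Ccl2 (mean difference 0.19), followed by Ccl9 (0.222) and Lilrb4a (0.236), an inhibitory receptor of myeloid cells. Itgam, the myeloid integrin CD11b, was nearest to Ccr2, at 0.104, the smallest distance of any member. For Ccl12 the nearest were F13a1, Msr1 and Mrc1 (0.182 to 0.191), all genes of macrophages, and for Ccl8 the complement genes C1qa (0.301) and C1qc (0.366). For Ccr1 they were Rgs1, Emilin2 and Cd300lf (0.154 to 0.209), for Ccl3 C5ar1, Sirpb1c and Pid1 (0.201 to 0.223), and for Ccl4 they included Gda and Lair1 (0.212 and 0.216). Ccl5 had no close neighbor. Its nearest genes were the interferon-induced Isg15 (0.358) and Ifitm3 (0.37), and the nearest other member, Ccl4, stood at rank 661.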

How the data were processed

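Libraries were made from poly(A) RNA with a directional kit and read from one end over 75 bases. Per the submitters' processing notes, the authors used cutadapt 2.3, STAR 2.7.0d on mm10 and RSEM 1.3.1, and deposited TPM per gene and library. For testing, the deposited TPM were taken to log2(TPM + 1), which understates the change of genes with low values. The DESeq2 test of the authors was not repeated. A gene entered a fit when its mean there was 1 TPM or more, and was tested with limma 3.58.1 in R 4.3.3 (lmFit, eBayes with trend, 1 mean per group, 2-sided, Benjamini-Hochberg adjustment over all genes). Each sample type was fitted on its 6 libraries, IgG and anti-PD1 on their 5, and contrasts between sample types on 18. The procedure was tested on simulated data. Genes named are the 9 members, the function and marker lists, Nr2f6 and the 3 genes nearest to each member. Some genes of these lists enter counts and sums but are not reported here. Members and lists were chosen with earlier results of these data known. Positions came from GENCODE M21 (99.1% of the table's genes), promoters from RefSeq. A marker symbol with several identifiers was followed by the most abundant. As alternatives, median-of-ratios scaling, no filter on low values, a pseudocount of 0.1, a replicate block, a fit of all 18 libraries, the mean of 3 groups in place of control, and leaving out each library were tried. Summaries and plots used Python 3.11.15, pandas 2.3.3 and matplotlib 3.10.9.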

Additional observations from a re-analysis of the deposited data

Results flagged for a closer look

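For Ccl8, the sg495 effect in bulk tumors exceeded that in cultures by 1.03 on the log2(TPM + 1) scale (SE 0.180, limma adjusted p = 0.0168), and for Ccr2 by 1.41 (SE 0.300, adjusted p = 0.0357). Neither gene was above 0 in any culture, so both differences are the effects in bulk tumors themselves. Within the 6 bulk libraries these effects were not called (limma adjusted p = 0.0865 for Ccl8 and 0.0994 for Ccr2). Ccl8 also passed the test between sorted tumor cells and cultured cells, with a difference of 0.77 (SE 0.180, adjusted p = 0.0353) that stands for 0.69 and 0.72 TPM against values of 0. It was tested there only because its level in bulk tumors brought it past the expression filter. The call was lost when any 1 library of the control or sg495 groups of sorted or cultured cells was left out, or any 1 sg492 culture. For Ccl5, both sg495 libraries were above both controls in bulk tumors (log2 fold change 0.83) and below both in cultured cells (−0.43), and the interaction of 1.26 had an adjusted p of 0.299. No group had enough libraries for a search for outlying samples.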

How the results depend on the processing

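The 9 genes kept their direction in bulk tumors with sg495 under every alternative run, whereas the number called did not stay at 0: it was 4 in the fit of all 18 libraries and 0 to 1 with a library left out. In sorted tumor cells, that fit called 1 member (Ccl8, below the filter in sorted cells) in place of 0 for sg495 against control and 1 for sg495 against sg492, beside 3.03% and 2.68% of all genes. Without the expression filter, the call of Ccl5 between control sorted and cultured cells went from 1 to 0, as did that of Ccl8 for the sg495 effect between sorted and cultured cells (0 to 1 for each with a library left out). With a pseudocount of 0.1, the 2 calls between bulk tumors and cultured cells became 0 (0 to 2 with a library left out; without the first sg495 bulk tumor Ccr2 alone was called, without the second, or without either sg492 culture, Ccl8 alone), and between bulk tumors and sorted cells 1 member was called in place of 0 (0.114% of all genes), Ccl8, whose difference reversed to −1.97, with Ccl7 at −1.10 and Ccl3 at −1.01. Between control bulk tumors and sorted cells, 8 of the 9 genes passed the filter through bulk tumors alone, so that their calls are no test. For Ccl5 the log2 fold change went from 1.85 to 1.36 without the first control bulk tumor. The cause of these changes was not tested.

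The labels do not say that a replicate number marks a shared animal or batch, and deviations of same-numbered libraries correlated between −0.126 and 0.051. With the replicate number as a block, the calls between bulk and cultured cells went from 2 to 0. Those between sorted and cultured cells went from 1 to 0. For anti-PD1 against IgG they went from 0 to 1 (Ccl5, −1.51, limma adjusted p = 0.000652), beside 3.83% of all genes called in place of 0%. No IgG library shares the replicate number of the third anti-PD1 library, so the block took that library out of this contrast. Ccl8 there turned to 0.0346, its value also when that library was left out.

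Signs that turned with a library left out belonged to small differences. Their ranges were, for sg492 against control, −0.0289 to 0.90 (Ccl3) and −0.25 to 0.72 (Ccl5) in bulk, and for Ccl5 −0.19 to 0.63 in sorted and −0.0901 to 0.57 in cultured cells. For sg495 against sg492 they were −0.10 to 0.12 (Ccl2), −0.0816 to 0.23 (Ccl12), −0.28 to 0.65 (Ccl3), −0.40 to 0.13 (Ccl7) and −0.46 to 0.0417 (Ccr1) in bulk, and −0.11 to 0.89 (Ccl5) in sorted cells. For anti-PD1 they were −0.38 to 0.0445 (Ccl2), −0.39 to 0.0854 (Ccl7), −0.53 to 0.0509 (Ccl8), −0.11 to 0.50 (Ccl3), −0.66 to 0.0049 (Ccr1) and −0.65 to 0.0724 (Ccr2), and for the sg495 effect in bulk minus sorted cells −0.31 to 0.45 (Ccl7) and −0.28 to 0.72 (Ccl5). TPM keep no read counts, so that the counting error of values near 0 is unknown.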
